A study of Rattus norvegicus with 4 samples.

Results

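Genes of meiotic chromosomes and germ cells were followed in whole rat ovaries cultured with or without GDNF, the glial cell line-derived neurotrophic factor. The set held 7 genes: Sycp1, Sycp2, Sycp3, Smc1b, Stag3, Ddx4 and Ldhc. Members were chosen by gene symbol, with the treatment and replicate-number differences of these arrays already known. Both differences are therefore descriptions for these genes. Where members past a threshold are counted, the share of all probe sets stands beside the count and nothing is read from it. Of the 7 genes, 6 had a probe set that carried their symbol alone, 1 probe set each, among 10608 genes tested. All 6 passed the filter on low signals. Ddx4 had no such probe set and is not analysed here.

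The GDNF group was 2 RNA samples of ovaries from 4-day-old pups kept 2 days in organ culture with GDNF, at a dose not given in the sources used here. The control group was 2 samples of ovaries of the same age, cultured for the same time with no factor. The protocol gives the culture medium, which holds insulin, transferrin and ascorbic acid, in the same words for every sample. That text names no GDNF, also for the GDNF samples, whose group rests on their titles and descriptions. Each sample pooled 6 to 10 ovaries and was hybridised to 1 Affymetrix rat array, and an animal's ovaries were never both in 1 group. The labels number the samples 1 and 2 within each group and do not say whether a number marks a litter, a culture day or an array run. Nothing says that replicates came from separate litters or cultures, so part of the spread of these 4 samples may be technical. A p-value here reflects that spread only in part, as limma moderates it by the trend over all probe sets.

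Median signal per array lay between 36.7 and 41.1, and the correlation of log2 signals between arrays, across the 18625 probe sets tested, lay between 0.971 and 0.986. It was 0.971 between the 2 GDNF samples, the lowest, and 0.984 between the 2 control samples. Between GDNF and control samples of the same number it was 0.983 for replicate 1 and 0.986 for replicate 2. The ratio of 3' to 5' beta-actin control signal, a measure of RNA integrity, was 2.62 to 3.76 and that of Gapdh 1.11 to 1.44. The labelled tissue was checked against its markers. The egg coat gene Zp2 had 1803 and 2437 in GDNF samples, against 1478 and 1872 in control samples, and the granulosa cell transcription factor Foxl2 had 686 and 690 in GDNF samples, against 591 and 624 in control samples. Precision is limited by the small number of arrays.

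Meiosis in the ovary begins before birth, when the oocyte pairs its homologous chromosomes along the synaptonemal complex, and it then pauses in the diplotene stage inside the primordial follicle. SYCP2 and SYCP3 form the lateral elements of that complex, the axes to which chromatin loops attach, and SYCP1 forms the transverse filaments that zip the axes together. SMC1B and STAG3 are subunits of the meiotic form of cohesin, the ring that holds sister chromatids together, and they take the place of SMC1A and of STAG1 or STAG2 in the somatic ring. DDX4 is an RNA helicase of germ cells. LDHC is a lactate dehydrogenase best known from testis germ cells.

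Regulatory sequence is shown for the 4 genes whose arrays separated by replicate number and for Ldhc, whose arrays separated by treatment. Each line gives the 250 bases before the annotated start site, from RefSeq on build GRCr8, and capitals mark matches to 4 short motifs on either strand. Sycp2 lies at chr3:185876493-185876742 (minus strand), Smc1b at chr7:118122649-118122898 (minus strand), Stag3 at chr12:22398158-22398407 (plus strand), Sycp3 at chr7:24761226-24761475 (plus strand) and Ldhc at chr1:106522745-106522994 (plus strand).
Sycp2: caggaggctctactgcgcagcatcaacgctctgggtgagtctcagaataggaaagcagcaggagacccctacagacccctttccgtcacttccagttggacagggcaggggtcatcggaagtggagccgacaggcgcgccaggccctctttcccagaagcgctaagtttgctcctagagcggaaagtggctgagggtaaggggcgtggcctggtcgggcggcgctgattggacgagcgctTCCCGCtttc
Smc1b: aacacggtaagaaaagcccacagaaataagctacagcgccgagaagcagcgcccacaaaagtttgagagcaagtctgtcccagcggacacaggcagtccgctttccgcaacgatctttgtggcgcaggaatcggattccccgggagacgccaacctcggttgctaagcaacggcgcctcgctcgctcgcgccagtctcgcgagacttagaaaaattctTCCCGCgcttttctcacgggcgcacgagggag
Stag3: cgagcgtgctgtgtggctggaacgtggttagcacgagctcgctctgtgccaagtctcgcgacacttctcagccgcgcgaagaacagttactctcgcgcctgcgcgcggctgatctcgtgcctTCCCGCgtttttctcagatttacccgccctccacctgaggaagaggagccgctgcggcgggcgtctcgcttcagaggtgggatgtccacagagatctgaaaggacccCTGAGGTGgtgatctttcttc
Sycp3: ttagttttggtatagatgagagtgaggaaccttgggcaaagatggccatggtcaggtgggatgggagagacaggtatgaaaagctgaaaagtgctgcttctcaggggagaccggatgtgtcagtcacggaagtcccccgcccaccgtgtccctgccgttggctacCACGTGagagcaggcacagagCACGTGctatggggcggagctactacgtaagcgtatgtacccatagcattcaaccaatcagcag
Ldhc: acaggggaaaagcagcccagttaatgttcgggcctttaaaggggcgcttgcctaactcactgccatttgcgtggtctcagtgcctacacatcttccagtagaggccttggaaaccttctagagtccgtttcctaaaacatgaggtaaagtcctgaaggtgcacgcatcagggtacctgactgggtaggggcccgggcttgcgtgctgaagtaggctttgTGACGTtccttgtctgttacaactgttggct

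In Sycp2 and Smc1b the capitals are TCCCGC, the core bound by E2F factors, of which E2F6 is known in mouse as a repressor of germ-cell genes in somatic cells. In Stag3 the first capitals are the same core and the second are a match, on the opposite strand, to CNCCTCAG, the motif reported for STRA8, a factor of meiotic entry. In Sycp3 the capitals are 2 copies of the E-box CACGTG, and in Ldhc they are TGACGT, the core of a cyclic AMP response element. The E2F core stood 10 to 5 bases before the start site of Sycp2, 32 to 27 before that of Smc1b and 128 to 123 before that of Stag3. No match of 1 motif overlapped a match of another. The motifs were chosen with these sequences in view. Across all 7 members, 5 promoters held TCCCGC, against 16% of 33465 rat promoters of the same length. CACGTG was in 2 of the 7 (5.59% of all), CNCCTCAG in 2 (7.11% of all) and TGACGT in 2 (6.95% of all). A match is a description of the letters and not evidence of binding.

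**Figure D1:**
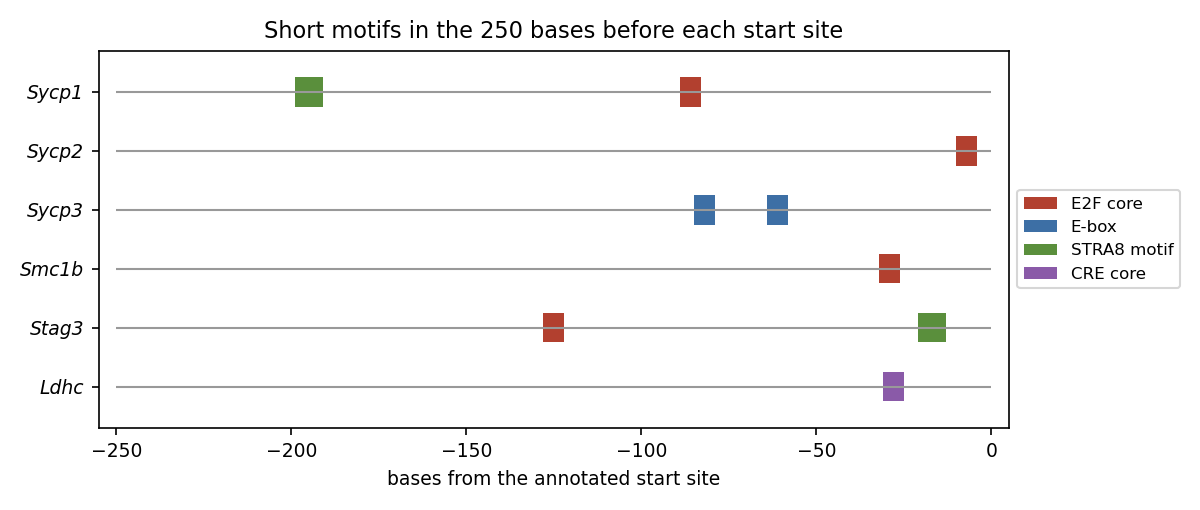
Positions of the 4 motifs in the 250 bases before the start site of the 6 genes measured, with distance in bases from the start site (at 0) across and a gene per line. TCCCGC (E2F core) appears in Sycp1, Sycp2, Smc1b and Stag3, while Sycp3 holds 2 E-boxes and Ldhc a CRE core.

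The 6 genes fell into 3 patterns. Sycp2, Smc1b, Stag3 and, by a smaller amount, Sycp3 had their higher signals on both replicate 2 arrays and their lower signals on both replicate 1 arrays, whichever the treatment. Ldhc had higher signals on both GDNF arrays than on both control arrays. Sycp1 was dim, and its arrays overlapped in both comparisons. Whole ovaries were measured, so fewer oocytes and less RNA per oocyte cannot be told apart.

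**Figure D2:**
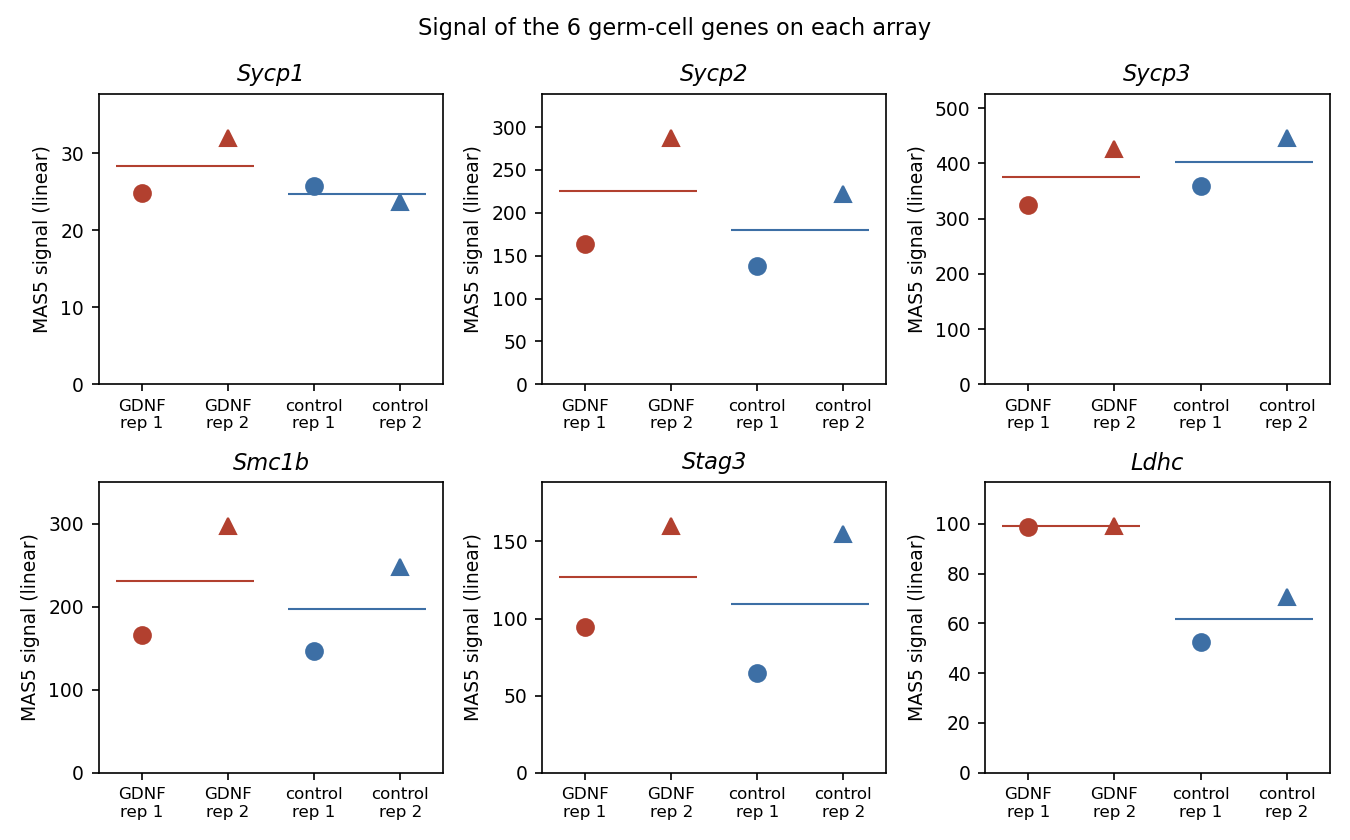
MAS5 signal (linear scale from 0) of the 6 germ-cell genes on each array. Red is GDNF and blue control, circles are replicate 1 and triangles replicate 2, and lines are group means (n = 2 each). Triangles lie above circles in both groups for Sycp2, Sycp3, Smc1b and Stag3, while for Ldhc both red points lie above both blue points.

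Among the synaptonemal complex genes, Sycp2 had a signal of 163 and 288 in GDNF replicates 1 and 2, against 138 and 222 in control replicates 1 and 2. Both replicate 2 samples were above both replicate 1 samples, and the GDNF and control ranges overlapped. Between replicate numbers, Sycp2 averaged 255 ± 46.4 in replicate 2 samples and 151 ± 17.5 in replicate 1 samples (SD, n = 2 each). On the log2(signal + 1) scale, used for every difference below, that was 0.75 (SE 0.15), a ratio of 1.68. The treatment difference, GDNF minus control, was 0.30 (SE 0.31), and it was 0.24 within replicate 1 and 0.37 within replicate 2.

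Sycp3 was measured at 324 and 427 in GDNF replicates 1 and 2, against 358 and 446 in control replicates 1 and 2. As for Sycp2, both replicate 2 samples were the high ones and the treatment groups overlapped. Its difference between numbers was 0.36 (SE 0.11), a ratio of 1.28. Its treatment difference was -0.11 (SE 0.17), with -0.15 within replicate 1 and -0.065 within replicate 2. Sycp3 was the 1 member with a lower mean in GDNF samples.

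Sycp1 had 24.8 and 32.0 in GDNF replicates 1 and 2, against 25.7 and 23.7 in control replicates 1 and 2. Only GDNF replicate 2 stood above the other arrays. Its mean lay at the 43.5th percentile of all probe sets, just above the filter at the 40th percentile (a signal of about 21.4), where MAS5 signals are noisy. The treatment difference was 0.18 (SE 0.28) and the difference between numbers 0.12 (SE 0.27), which turned to -0.09 without GDNF replicate 2.

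Of the cohesin genes, Smc1b had 166 and 297 in GDNF replicates 1 and 2, against 147 and 248 in control replicates 1 and 2. The order of the arrays was that of Sycp2, with GDNF replicate 2 highest, then control replicate 2, GDNF replicate 1 and control replicate 1. Smc1b averaged 273 ± 34.3 in replicate 2 samples and 156 ± 13.4 in replicate 1 samples (SD, n = 2 each), a difference of 0.79 (SE 0.14) and a ratio of 1.73. Its treatment difference was 0.22 (SE 0.32), with 0.17 within replicate 1 and 0.26 within replicate 2.

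Stag3 had 94.6 and 160 in GDNF replicates 1 and 2, against 64.6 and 155 in control replicates 1 and 2. It kept the same order of arrays, with the replicate 2 samples close together and control replicate 1 lowest. The difference between numbers was 1.00 (SE 0.19), the largest of the 6, a ratio of 2.00. It was 0.75 among GDNF samples and 1.25 among control samples. The treatment difference was 0.29 (SE 0.41), with 0.54 within replicate 1 and 0.05 within replicate 2. The order of arrays shared by Sycp2, Smc1b and Stag3 was found in 3 of the 6 members and in 7.24% of all probe sets tested.

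Ldhc, the lactate dehydrogenase of germ cells, had 98.9 and 99.0 in GDNF replicates 1 and 2, against 52.7 and 70.5 in control replicates 1 and 2. Both GDNF samples were above both control samples, and the control samples were further from each other than the GDNF samples. The treatment difference was 0.69 (SE 0.20), a ratio of 1.61. Leaving out each array in turn gave 0.48 (without control replicate 1) to 0.90 (without control replicate 2). Between numbers the difference was 0.21 (SE 0.27), with 0.0014 among GDNF samples and 0.41 among control samples, and it turned to -0.24 without control replicate 1 and to -0.03 without GDNF replicate 2.

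In the comparison of GDNF with control, 5 of the 6 members had a higher mean and 1 a lower mean, against 48.5% higher and 51.5% lower among all probe sets tested. GDNF samples were above control samples with no overlap for 1 member, Ldhc, and 13.4% of all probe sets did so. With a difference of at least 1.5-fold as well, Ldhc was again the 1 member, among 0.424% of all probe sets. No member had GDNF below control with no overlap, which 16.6% of all probe sets did. Within both replicate numbers, GDNF was above control for 4 members (24.8% of all probe sets) and below control for 1 (27.2% of all). The median treatment difference was 0.26 over the members and -0.01 over all probe sets tested. In limma with Benjamini-Hochberg adjustment over all probe sets, 0 members passed 0.05 and 0% of all probe sets did. At an unadjusted p under 0.05 there were 508 probe sets, 1 of them the member Ldhc. With the replicate number as a block, 0 members and 0.043% of all probe sets passed.

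The median treatment difference of the members rested on single arrays. It turned to -0.10 without control replicate 1 and to -0.09 without GDNF replicate 2, and was 0.65 without GDNF replicate 1. Leaving out an array pairs a group of both numbers with a group of 1 number. Without control replicate 1 the treatment difference was -0.03 for Sycp2, -0.16 for Smc1b and -0.33 for Stag3. Without GDNF replicate 2 it was -0.10 for Sycp2, -0.20 for Smc1b and -0.08 for Stag3. For Sycp3 it became 0.09 without GDNF replicate 1 and 0.05 without control replicate 2.

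In the comparison of replicate 2 with replicate 1, all 6 members had a higher mean in replicate 2 samples, against 47.5% of all probe sets tested. Replicate 2 samples were above replicate 1 samples with no overlap for 4 members, and 20.9% of all probe sets did so. For 0 members were they below with no overlap, which 22.6% of all probe sets were. Sycp2, Smc1b and Stag3 were also at least 1.5-fold apart (3 members), as were 0.875% of all probe sets. Within both treatments, replicate 2 was above replicate 1 for 5 members (28.6% of all probe sets). The median difference was 0.55 over the members and -0.01 over all probe sets tested. In limma 2 members, Smc1b and Stag3, passed 0.05 after adjustment over all probe sets, as did 0.462% of all probe sets. With treatment as a block 3 members passed, Sycp2 being the third, and 2.3% of all probe sets. Of the 86 probe sets that passed, 16 were higher in replicate 2 and 70 lower. After median centring of each array 108 of 224 were higher, and the median over all probe sets tested was 0.09. With no filter neither member passed (adjusted p = 0.173 for Smc1b and 0.254 for Stag3), nor without the variance trend (0.26 and 0.277). Without GDNF replicate 2 neither member passed and 9 probe sets did in all, and without control replicate 1 or control replicate 2 Stag3 did not pass (253 and 116 probe sets in all). The comparison was part of how the members were chosen, so nothing is read from these counts. The 3'/5' beta-actin ratios were 2.62 and 3.61 in GDNF replicates 1 and 2, against 3.76 and 3.34 in control replicates 1 and 2. Those of Gapdh were 1.11 and 1.44 in GDNF replicates 1 and 2, against 1.28 and 1.22 in control replicates 1 and 2. Their part in the number differences was not tested.

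**Figure D3:**
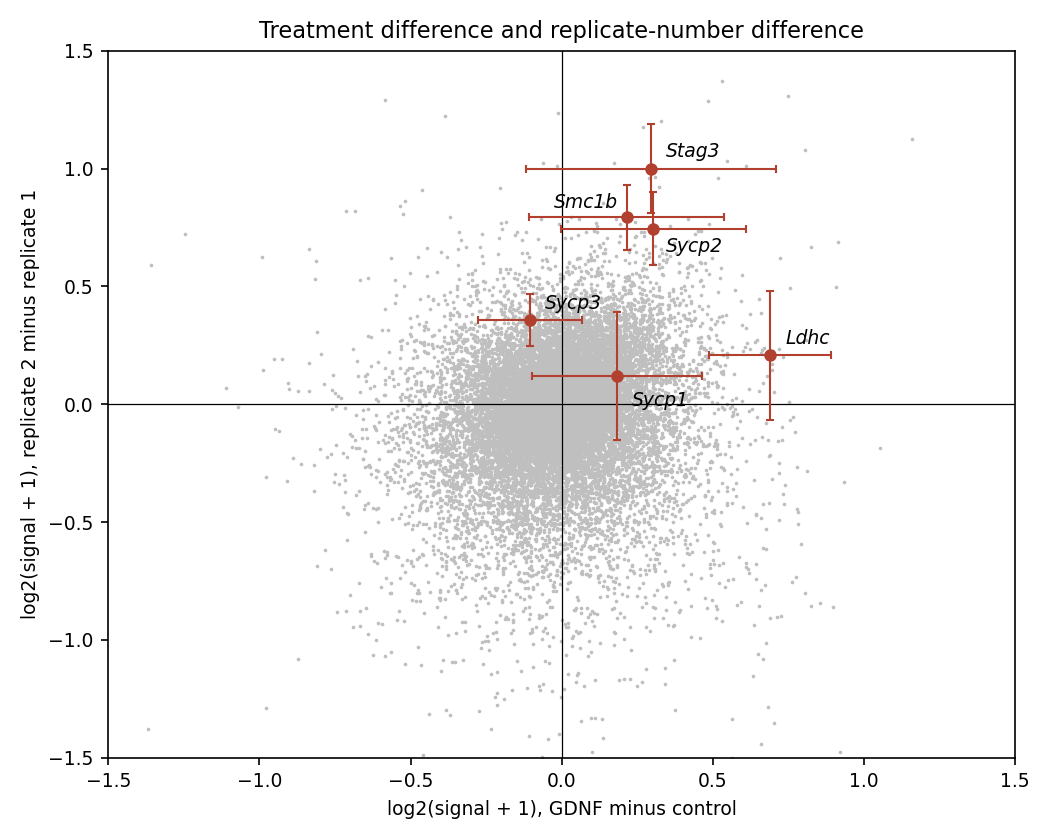
Difference between GDNF and control (across) against difference between replicate 2 and replicate 1 (up), both on the log2(signal + 1) scale, for the 6 members (red, with limma's standard errors) and all probe sets tested (grey, with 36 beyond the axes). Stag3, Smc1b and Sycp2 lie high, with number differences of 1.00, 0.79 and 0.75. They also lie right of the vertical line, at treatment differences of 0.29, 0.22 and 0.30 (SE 0.41, 0.32 and 0.31). Ldhc lies further right, at a treatment difference of 0.69.

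The somatic relatives of the cohesin members were measured too. Smc1a, the somatic counterpart of Smc1b, had 307 and 294 in GDNF replicates 1 and 2, against 290 and 274 in control replicates 1 and 2. Its number difference was -0.07 (SE 0.12) and became 0.03 after median centring. In its brightest probe set Stag2 had a number difference of -0.0042 (SE 0.10), and in a dimmer one -0.19 (SE 0.14). Stag1 had 0.05 (SE 0.17) in its brightest probe set, with -0.23 without control replicate 1 and 0.34 without GDNF replicate 1, and 0.04 in another. Of the 10 cohesin genes tested besides the members, 5 were higher and 5 lower in GDNF, 4 and 1 of them with no overlap (13.4% and 16.6% of all probe sets). By number 7 were higher and 3 lower in replicate 2. None of the 10 passed in either comparison in limma, and their median number difference was 0.03. The highest treatment differences among them were those of Stag1 (0.29, SE 0.16, and -0.0065 in another probe set), Sgo1, which guards centromeric cohesin (0.265, SE 0.13), and Smc3, the partner of both SMC1 proteins (0.26, SE 0.12, and -0.02 in a dimmer probe set). Without control replicate 1 that of Stag1 was 0.13 and that of Smc3 0.13, and without control replicate 2 they were 0.46 and 0.39. That of Sgo1 ran from 0.17 without GDNF replicate 2 to 0.36 without GDNF replicate 1. The lowest was that of Rad21, the kleisin that closes the somatic ring (-0.12, SE 0.10), with -0.20 without GDNF replicate 2 and -0.03 without GDNF replicate 1. Rec8, the kleisin of the meiotic ring, had no probe set with its symbol alone. The differences between Smc1b or Stag3 and these relatives were not tested.

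Other germ-cell genes were set beside the members from lists of known function. Among 11 genes of germ-cell RNA proteins tested, 10 had a higher mean in replicate 2 samples (47.5% of all probe sets), 7 of them with no overlap (20.9% of all), and the median number difference was 0.32. Elavl2, an RNA-binding protein, and Tdrd1, a Tudor protein of the piRNA pathway, were among those 7. They were singled out after their values were seen. Elavl2 had 762 and 1084 in GDNF replicates 1 and 2, against 678 and 911 in control replicates 1 and 2. Tdrd1 had 1047 and 1456 in GDNF replicates 1 and 2, against 1054 and 1177 in control replicates 1 and 2. By treatment 7 of the 11 were higher and 4 lower in GDNF, 0 and 2 of them with no overlap (13.4% and 16.6% of all probe sets), with a median of 0.15. Ybx2, a Y-box protein that stores mRNA in germ cells, had the highest treatment difference of the list (0.42, SE 0.27) with overlapping groups, and it was 0.07 without control replicate 1 and 0.77 without control replicate 2. Tdrd7, another Tudor protein, had the lowest (-0.19, SE 0.14), with -0.09 without control replicate 1 and -0.30 without control replicate 2. None of the 11 passed in limma in either comparison, but with treatment as a block Elavl2 passed by number (adjusted p = 0.0153).

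Of the 6 genes of meiotic recombination tested, all had a higher mean in replicate 2 samples (47.5% of all probe sets), 4 with no overlap (20.9% of all), and the median number difference was 0.24. Mnd1, which with Psmc3ip helps the strand exchange protein DMC1, had 729 and 1063 in GDNF replicates 1 and 2, against 685 and 822 in control replicates 1 and 2. Both replicate 2 samples were above both replicate 1 samples. Its number difference was 0.40 (SE 0.12) and its treatment difference 0.23 (SE 0.19), which turned to -0.04 without GDNF replicate 2. Psmc3ip had 249 and 220 in GDNF replicates 1 and 2, against 175 and 200 in control replicates 1 and 2, a treatment difference of 0.32 (SE 0.14) with no overlap. Rec114, needed for meiotic DNA breaks, was near the filter and had the lowest treatment difference of this list (-0.53, SE 0.26), with no overlap. It had 23.1 and 25.5 in GDNF replicates 1 and 2, against 33.5 and 37.8 in control replicates 1 and 2. By treatment 4 of the 6 were higher and 2 lower in GDNF, 1 and 1 of them with no overlap (13.4% and 16.6% of all probe sets), and none passed in either comparison, but with treatment as a block Mnd1 passed by number (limma adjusted p = 0.0453). Spo11, the enzyme of meiotic DNA breaks, and Syce3, of the central element of the synaptonemal complex, lay below the filter and were not tested.

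The lactate dehydrogenases of somatic tissue overlapped between GDNF and control samples. Ldha, the muscle-type subunit, had 1963 and 1496 in GDNF replicates 1 and 2, against 1573 and 1636 in control replicates 1 and 2, with a treatment difference of 0.10 (SE 0.14) that turned to -0.10 without GDNF replicate 1. Ldhb, the heart-type subunit, had 1677 and 2268 in GDNF replicates 1 and 2, against 1729 and 1863 in control replicates 1 and 2. Its treatment difference of 0.12 (SE 0.15) turned to -0.10 without GDNF replicate 2. The differences between Ldhc and these relatives were not tested. Of the 7 genes of lactate metabolism tested besides Ldhc, 4 were higher and 3 lower in GDNF, 0 and 2 of them with no overlap (13.4% and 16.6% of all probe sets), and none passed.

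Among 13 genes that keep germ-cell genes silent in somatic cells, 8 were higher and 5 lower in GDNF, 4 and 2 of them with no overlap (13.4% and 16.6% of all probe sets), and none passed in either comparison. Dnmt1, the maintenance DNA methyltransferase, had 887 and 631 in GDNF replicates 1 and 2, against 508 and 532 in control replicates 1 and 2 (0.52, SE 0.16). Its partner Uhrf1 had 223 and 171 in GDNF replicates 1 and 2, against 128 and 162 in control replicates 1 and 2 (0.43, SE 0.19). Both were highest in GDNF replicate 1, and without it their differences were 0.28 and 0.24. The lowest of the list was that of Ehmt2 (-0.30, SE 0.15), with no overlap. Ehmt2 had 262 and 235 in GDNF replicates 1 and 2, against 272 and 343 in control replicates 1 and 2. The median treatment difference of the 13 was 0.02. By number 7 were higher (47.5% of all probe sets) and 6 lower in replicate 2. E2f6 had 165 and 178 in GDNF replicates 1 and 2, against 180 and 179 in control replicates 1 and 2, a difference of -0.06 (SE 0.13) by treatment and 0.05 (SE 0.13) by number, which became -0.01 without GDNF replicate 1.

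Markers of the cells in the ovary were set beside these genes. All 8 oocyte markers tested had a higher mean in GDNF (48.5% of all probe sets), 5 with no overlap (13.4% of all), and their summed signal was 7597 and 9249 in GDNF samples, against 5892 and 7164 in control samples. Gdf9, the growth factor secreted by oocytes, had a treatment difference of 0.61 (SE 0.14), close to that of Ldhc. By number 7 of the 8 were higher in replicate 2 (47.5% of all probe sets), 2 with no overlap (20.9% of all), and the sums were 9249 and 7164 in replicate 2 samples and 7597 and 5892 in replicate 1 samples, which overlapped. The median number difference of the oocyte markers was 0.29. All 7 leukocyte markers tested had a lower mean in replicate 2 samples, 5 with no overlap (22.6% of all probe sets), and their sums were 656 and 716 in replicate 2 samples and 915 and 852 in replicate 1 samples. By treatment 2 of the 7 were higher and 5 lower in GDNF, 0 and 2 of them with no overlap (13.4% and 16.6% of all), with a median of -0.26. Of 8 surface epithelium markers 7 were lower in replicate 2, 4 with no overlap (22.6% of all). Their sums were 4944 and 5659 in replicate 2 samples and 5569 and 6670 in replicate 1 samples. In GDNF 7 of the 8 were also lower (51.5% of all probe sets), 3 with no overlap (16.6% of all). Of 9 granulosa markers 8 were higher in GDNF (48.5% of all probe sets), 5 with no overlap (13.4% of all). The other was lower with no overlap (16.6% of all). By number 3 were higher in replicate 2 (47.5% of all), 0 with no overlap (20.9% of all). The 6 others were lower, 3 with no overlap (22.6% of all). The granulosa sums were 5660 and 5340 in GDNF samples and 4910 and 4432 in control samples. Such sums weigh bright genes most. In GDNF replicate 1, Cd14 gave 590 of the leukocyte sum of 915 and Krt19 gave 3365 of the surface epithelium sum of 5569. Zp2, Zp3 and Ooep gave 1803, 2106 and 2268 of the oocyte sum of 7597. Of the other lists, 3 of 5 theca, 0 of 5 endothelial and 0 of 5 smooth muscle markers were higher in GDNF (48.5% of all). So were 2 of 2 erythroid markers and 1 of 3 genes of meiotic entry. By number, 1 of 5 theca, 1 of 5 endothelial and 2 of 5 smooth muscle markers were higher in replicate 2 (47.5% of all). So were 1 of 2 erythroid markers and 1 of 3 genes of meiotic entry. No gene of these lists passed in limma in either comparison, and none of those tested was at 0 on any array. With the other factor as a block, Gdf9 passed by treatment (limma adjusted p = 0.0469), and Krt18 (0.00437), Upk1b (0.0107) and Krt8 (0.0176) of the surface epithelium and Hsd17b1 (0.0413) of the granulosa list passed by number, all 4 lower in replicate 2. Their part in the values of the members was not tested.

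**Figure D4:**
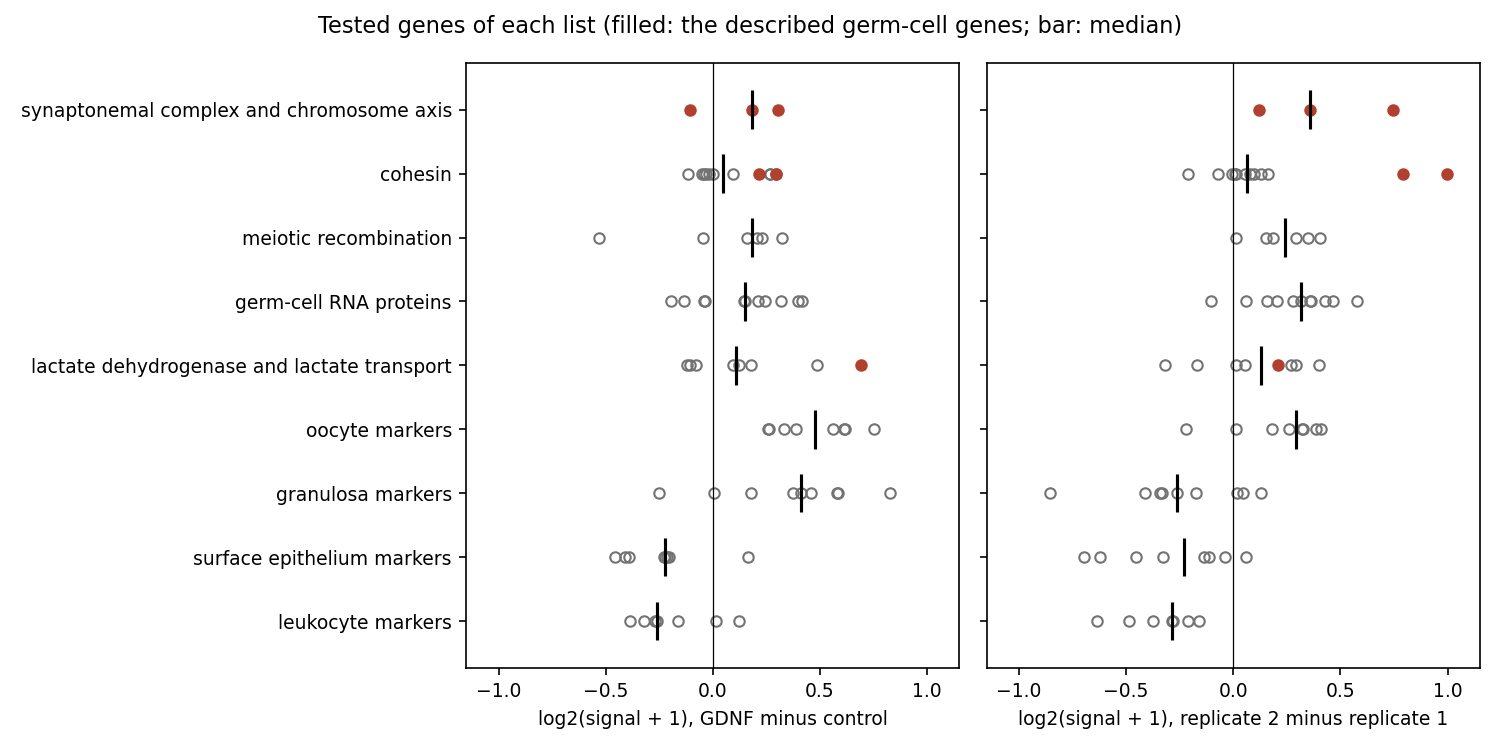
Differences on the log2(signal + 1) scale for each tested gene (brightest probe set) of 9 lists, GDNF minus control on the left and replicate 2 minus replicate 1 on the right, with a black bar at each list's median. The described genes are filled red. In the right panel Smc1b and Stag3 stand at 0.79 and 1.00 while the other cohesin genes have a median of 0.03, and in the left panel Ldhc stands at 0.69. The described genes were chosen with these values known, and their differences from other genes were not tested.

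Averaged over the 6 members, the centred log2 signal was -0.13 and 0.39 in GDNF replicates 1 and 2, against -0.41 and 0.14 in control replicates 1 and 2. That average mixes the 3 patterns of the members. The genes outside the set closest to it over the 4 arrays, by root mean square distance, were Celf5 (0.018), Cdk14 (0.022), Sc5d (0.029), Ndrg4 (0.031) and Styxl1 (0.034). Celf5 was dim, near the filter at about 21.4, with 21.3 and 30.4 in GDNF replicates 1 and 2, against 17.0 and 26.1 in control replicates 1 and 2. Cdk14, a cyclin-dependent kinase, had 320 and 459 in GDNF replicates 1 and 2, against 273 and 385 in control replicates 1 and 2. With 4 arrays many genes can lie this close, and the distances are a description.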

How the data were processed

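Gene expression was measured on 4 Affymetrix arrays, 2 GDNF and 2 control, grouped by the sample titles. Values were deposited as intensity per probe set on a linear scale, the signal that the authors computed with MAS5 (version not stated), as the submitters' processing notes record. MAS5 scales arrays to a common trimmed mean (125 on each array here, trimming 2% at each end), so a change in total RNA cannot be seen. From 31099 probe sets, 57 Affymetrix control probe sets were left out. The log2 of each signal plus 1 was taken, and 18625 probe sets at or above the 40th percentile of mean log2 signal were tested. Genes were named from the platform annotation (20826 probe sets with 1 symbol, 436 with several, 9780 with none), with 20758 Entrez identifiers matched to RefSeq of GRCr8 and 0 symbols changed.

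Comparisons used limma 3.58.1 (R 4.3.3; lmFit, eBayes with trend, two-sided, Benjamini-Hochberg over all probe sets tested, threshold 0.05), once by treatment and once by replicate number. Each fit left 2 residual degrees of freedom, or 1 with the other factor as a block. After moderation the median was 7.106 by treatment, 11.76 by number and 18.17 with a block. An exact two-sided permutation test of 2 against 2 samples cannot go below p = 0.333. The members and the 15 lists (165 genes) were chosen with earlier results of these data known. Named genes were all members, the somatic relatives of members and the 5 nearest patterns. From each list they were up to the 3 highest and 3 lowest treatment differences, of which a part is given. Some list genes were named outside that rule. They were Elavl2 and Tdrd1, singled out after their values were seen, Zp3 and Krt19 for their weight in a sum, and Krt8, which passed with a block. Genes with no tested probe set were named too. The brightest probe set stands for a gene. As alternatives, the pseudocount was raised to 16, the filter dropped or moved to the 60th percentile, arrays quantile-normalized or median-centred, the variance trend left out, the other factor fitted as a block, the mean over the probe sets of a gene taken, and each array left out in turn.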

Additional observations from a re-analysis of the deposited data

How the results depend on the processing

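With the replicate number as a block, 8 probe sets passed for GDNF against control (4 higher, 4 lower) and 0 members. Those 8 include Gdf9, an oocyte marker. The labels do not say that a number marks shared animals, litters or days, though an animal could give 1 ovary to each group. The deviations of same-numbered samples correlated at 0.323 across probe sets, from 2 pairs. The count was 0 under the other alternatives, and 0 (lowest and highest) when an array was left out. The members' median treatment difference ran from -0.10 to 0.65 when an array was left out, and from 0.23 to 0.29 otherwise. That 0.29 is the median of the 5 members left by the 60th percentile filter, without Sycp1. When an array was left out, treatment differences ran from -0.20 to 0.63 for Smc1b, -0.33 to 0.92 for Stag3, -0.10 to 0.71 for Sycp2 and -0.304 to 0.0928 for Sycp3, and number differences from -0.24 to 0.66 for Ldhc and -0.0876 to 0.33 for Sycp1. For replicate 2 against replicate 1, 224 probe sets passed after median centring, 13 with no filter, 2 without the variance trend, 429 with treatment as a block, and 9 to 253 when an array was left out (9 without GDNF replicate 2, 253 without control replicate 1). The cause was not tested. Smc1b and Stag3 both missed the threshold with no filter, without the trend and without GDNF replicate 2, and Stag3 also without either control replicate. Sycp2 passed after median centring, with treatment as a block and without GDNF replicate 1. No direction of a member changed under the alternatives that kept all 4 arrays, though Sycp1 fell below the 60th percentile filter. Among these, only the raised pseudocount, quantile normalization and median centring could have changed a direction. The filter, the variance trend and the block cannot alter a member's difference in this balanced design. Nor can the mean over probe sets, as each measured member had 1 probe set. Dim signals, such as that of Sycp1, have little precision in MAS5.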
